A study of Mus musculus with 4 samples.

Results

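Accessible chromatin was examined at 10 genes of inflammatory signalling in cultured mouse bone mesenchymal stem cells (MSCs): the cytokine genes Il6, Il11, Lif, Il1a, Il1b and Tnf, the antagonist gene Il1rn, and the NF-kB genes Tnfaip3, Nfkbia and Nfkb1. A peak was counted when it overlapped one of these genes or the 20 kb upstream of its start in the GENCODE vM21 annotation of GRCm38. This gave 42 of the 117282 peaks in the joint peak list, and no peak was shared by any pair of the genes. Each peak is named below by its gene and by a number that runs with the chromosome coordinate.

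The assay was ATAC-seq, in which a transposase cuts and tags DNA that is not covered by nucleosomes or other proteins, so that the read count over a site measures how open it is. The Old group held 2 samples of MSCs from mice of 18 to 22 months and the Young group 2 samples from mice of 3 to 5 months. Cells of both groups were grown only under 2% O2 in serum-containing medium, and no other treatment or genotype separated them. The isolation, described for young C57BL/6N males, let cells grow out of collagenase-treated bone pieces before sorting for CD45-/TER-119-/CD140a+/Sca-1+ cells. The samples are thus cultured, sorted cells and not cells taken directly from bone. The labels do not say whether the samples of a group came from separate animals or cultures, and p-values therefore measure only the spread between these samples.

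NF-kB is a family of transcription factors, made of paired subunits such as the p50 protein cut from the product of Nfkb1, which inhibitor proteins hold in the cytoplasm until signals such as TNF or interleukin-1 release them. The freed factor switches on cytokine genes and also its own brakes, IκBα from Nfkbia and the ubiquitin-editing enzyme A20 from Tnfaip3. Interleukin-6, interleukin-11 and LIF act through receptors that share the gp130 subunit, and in bone they take part in the exchange between stromal cells, osteoblasts and osteoclasts.

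The sequence before the start of these genes shows where the factors named above can bind. The 250 bases before each start were taken from RefSeq (build GRCm38.p6), which held 13 such windows for 9 of the 10 genes. They were searched on both strands for the 10-letter kB consensus bound by NF-kB, for the AP-1 motif TGANTCA and for the C/EBP motif TTGCNNAA, and no matches of different motifs overlapped in these windows. The kB consensus was present in 3 of the 13 windows, those of Il6, Tnfaip3 and Nfkbia, against 3.90% of 32851 windows of all genes. AP-1 matches were present in 6 windows, those of Il6, Il11, Lif, Il1a, Il1rn and Tnfaip3, against 6.75% of all windows, and the C/EBP motif was present in 1, that of Il6, against 9.56%. The windows of Il6 (chr5:30012864-30013113, plus strand) and Nfkbia (chr12:55492648-55492897, minus strand) are shown because they hold kB matches, at -44 to -35 and at -29 to -20 from the start. The window of Il1rn (chr2:24336610-24336852, plus strand, 243 bases) is shown because it has an AP-1 match and no kB match, and capitals mark all matches.
Il6: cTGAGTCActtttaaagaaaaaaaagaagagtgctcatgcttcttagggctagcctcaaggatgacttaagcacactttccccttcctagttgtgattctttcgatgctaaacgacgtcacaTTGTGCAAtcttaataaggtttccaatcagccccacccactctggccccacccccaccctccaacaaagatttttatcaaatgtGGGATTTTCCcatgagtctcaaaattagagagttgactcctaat
Nfkbia: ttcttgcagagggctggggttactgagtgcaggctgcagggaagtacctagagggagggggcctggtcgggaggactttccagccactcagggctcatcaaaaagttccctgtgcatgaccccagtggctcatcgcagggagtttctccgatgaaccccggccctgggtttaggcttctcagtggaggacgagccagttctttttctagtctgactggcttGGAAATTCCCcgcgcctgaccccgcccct
Il1rn: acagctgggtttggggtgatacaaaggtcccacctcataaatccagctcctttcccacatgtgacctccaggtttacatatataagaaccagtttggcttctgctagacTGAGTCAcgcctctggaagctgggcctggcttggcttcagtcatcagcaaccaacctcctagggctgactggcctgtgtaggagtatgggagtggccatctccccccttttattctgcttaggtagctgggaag

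The Tnfaip3 window held 2 kB matches, at -125 to -116 and at -12 to -3 from the RefSeq start. The window overlaps an annotated exon of the gene, and whether each match lies in that exon was not tested. The stretches that hold them, on the minus strand at chr10:19015516-19015545 and chr10:19015411-19015440, are given with the kB match in capitals.
Tnfaip3, first match: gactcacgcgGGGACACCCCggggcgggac
Tnfaip3, second match: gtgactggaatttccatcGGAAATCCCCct
Each sequence printed here lies inside a peak of the present data, and the levels of those peaks are given gene by gene below. A match describes letters only, and binding was not measured.

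The deposited values are counts per 10000000 of the library total, and they were not divided by peak length. The library totals that their steps imply ran from 28259470 to 32559794 counts, so 3 counts correspond to a value between 0.921 and 1.06. Peaks held 43.8% and 50.3% of the old libraries and 57.5% and 62.9% of the young ones, so that most peaks had lower deposited values in old samples: the median log2 difference over all 117282 peaks was -0.27. Relative log expression (RLE) scaling, which divides each library by the median ratio of its peaks to their geometric mean over libraries, brought that median to 0.0011. Both scales are given, because RLE cannot show a shift shared by most peaks. In bulk samples, fewer cells with an open site and less accessibility per cell cannot be told apart. Mitochondrial peaks made up 15.7% of the peak signal in Old 1 and 6.52% in Old 2, against 13.5% and 14.5% in the young libraries. The part of library quality in the lower deposited values was not tested. Across peaks, which are not independent replicates, log2 values correlated at 0.956 between the old samples and 0.971 between the young samples, and at 0.924 to 0.952 between old and young samples.

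The sorted cell type was checked on promoter accessibility of marker genes, summed per kb of peak. All 10 mesenchymal markers, among them Pdgfra and Ly6a, the genes of the sorting antigens CD140a and Sca-1, had a promoter peak, with sums of 179 and 273 in old and 233 and 244 in young samples. Of the 10 leukocyte markers, 5 had no promoter peak, among them the defining gene Ptprc, which encodes CD45. The sums over the others were 82.9 and 112 in old and 115 and 124 in young samples. Per gene the levels were alike, and the sums cover unequal numbers of genes with a peak. Means over the samples ran from 15.1 (Spi1) to 35.6 (Cd68) per kb at the leukocyte promoters with a peak. They ran from 6.45 (Eng) to 53.3 (Twist1) per kb at the mesenchymal ones. Of the 6 endothelial markers 3 had none, and of the 6 erythroid markers 2 had none. Endothelial sums were 37.7 and 48.0 in old and 53.8 and 55.6 in young samples, and erythroid sums were 65.1 and 89.5 in old and 87.3 and 108 in young samples. The part of other cell types in the differences below was not tested.

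None of the 42 peaks passed the test of old against young. With limma across all peaks on RLE-scaled values, 0 member peaks were higher and 0 were lower in old samples at an adjusted p below 0.01, against 0.0256% and 0.0307% of all peaks, or 0.0563% in either direction. At an unadjusted p below 0.05, 5 member peaks were higher (Lif peak 1, Il1rn peaks 3, 4 and 5, and Tnf peak 1), and 7.49% of all peaks were. By the same measure 1 member peak was lower (Il6 peak 4), and 8.87% of all peaks were. On the values as deposited the adjusted count was also 0 in both directions, where 0.0443% of all peaks were higher and 1.14% lower. limma-voom on the recovered counts called 1 member peak, Il1rn peak 5, as higher, where it called 0.0418% of all peaks.

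By position, 15 of the member peaks lay within 1 kb of an annotated transcript start of their gene, 4 overlapped exons, 7 were intronic and 16 were upstream. The median width was 2200 bp, against 1200 bp over all peaks. On the RLE scale 22 of the 42 were higher and 20 lower in old samples, and their median log2 fold change was 0.0079, against 0.0011 over all peaks. On the deposited scale 30 of the 42, or 71.4%, were lower, against 74.6% of all peaks, and the median was -0.27 for both. As a group the peaks thus lay close to all peaks.

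The groups did not overlap at 11 peaks (26.2%) that were lower and 13 (31.0%) that were higher in both old samples on the RLE scale, where 24.2% and 23.2% of all peaks did so. On the deposited scale 21 of the 42 were lower and 6 higher in both old samples, against 43.5% and 7.56% of all peaks. The shares on the lower side were near the background. On the higher side, Il1rn alone held 4 of the 13 peaks on the RLE scale and 3 of the 6 as deposited.

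**Figure D1:**
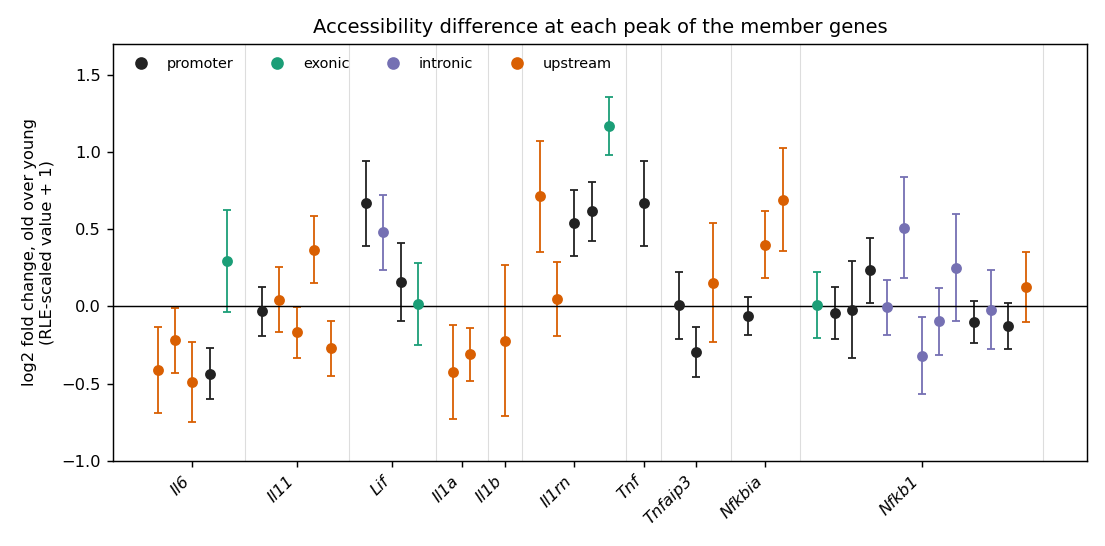
The log2 fold change of each of the 42 peaks, old over young, on the RLE-scaled value plus 1, grouped by gene, with bars of 1 standard error and colours for the position of the peak. All 5 Il1rn peaks and all 4 Lif peaks lie above 0, and 4 of the 5 Il6 peaks lie below it.

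The Il6 locus had lower values in old samples at its start and upstream, although no peak passed the adjusted test. Il6 encodes interleukin-6, a cytokine that acts through gp130. The gene lies at chr5:30013114-30019981 on the plus strand, and its start lies in peak 4 (chr5:30012201-30015200), which holds the kB, AP-1 and C/EBP matches shown above. Deposited values of peak 4 were 83.2 and 126 in old samples and 163 and 176 in young samples. Each old value was below each young value. The RLE-scaled means were 114 ± 16.2 (SD, n = 2) in old and 153 ± 0.338 (SD, n = 2) in young samples, or 74.2% of young. Old against young gave a log2 fold change of -0.43 with a standard error of 0.16, with an unadjusted p of 0.016 and a limma adjusted p of 0.191. Without Old 2 the log2 fold change was -0.57 (adjusted p 0.0027), and without Old 1 it was -0.29 (adjusted p 0.106).

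The 3 upstream Il6 peaks lie within the lincRNA gene A230098N10Rik, so that they could belong to either gene. Deposited values were 10.5 and 12 in old against 15.9 and 21.8 in young samples at peak 1, and 30.8 and 35.9 against 48.1 and 46.9 at peak 2. At peak 3, values were 14 and 18.4 in old and 31.8 and 24.5 in young samples. At each of the 3, neither old sample reached a young one on either scale. Of all peaks, 24.2% were so placed after RLE scaling and 43.5% as deposited. RLE-scaled log2 fold changes were -0.41 at peak 1, -0.22 at peak 2 and -0.49 at peak 3, with limma adjusted p from 0.363 to 0.652. The value of peak 3 was the lowest among the 42 peaks with all libraries, but it was -0.26 without Young 1 and -0.72 without Young 2. Without Young 1, peaks 1 and 4 were lower than peak 3, at -0.58 and -0.44. Peak 1 was -0.25 without Young 2. Peak 5, at the other end of the gene, lay on the other side of 0. Its deposited values were 7.34 and 8.60 in old against 6.72 and 8.84 in young samples, which overlapped. After RLE scaling both old samples were above both young samples. The log2 fold change of peak 5 was 0.29 with a standard error of 0.33. Over its 5 peaks, Il6 summed to 146 and 201 in old against 266 and 278 in young samples, 63.8% of young as deposited and 77.0% after RLE scaling. Among the 10 genes this was the lowest share of young on either scale, and the exact permutation p was 0.33, the smallest that 2 samples against 2 can give.

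**Figure D2:**
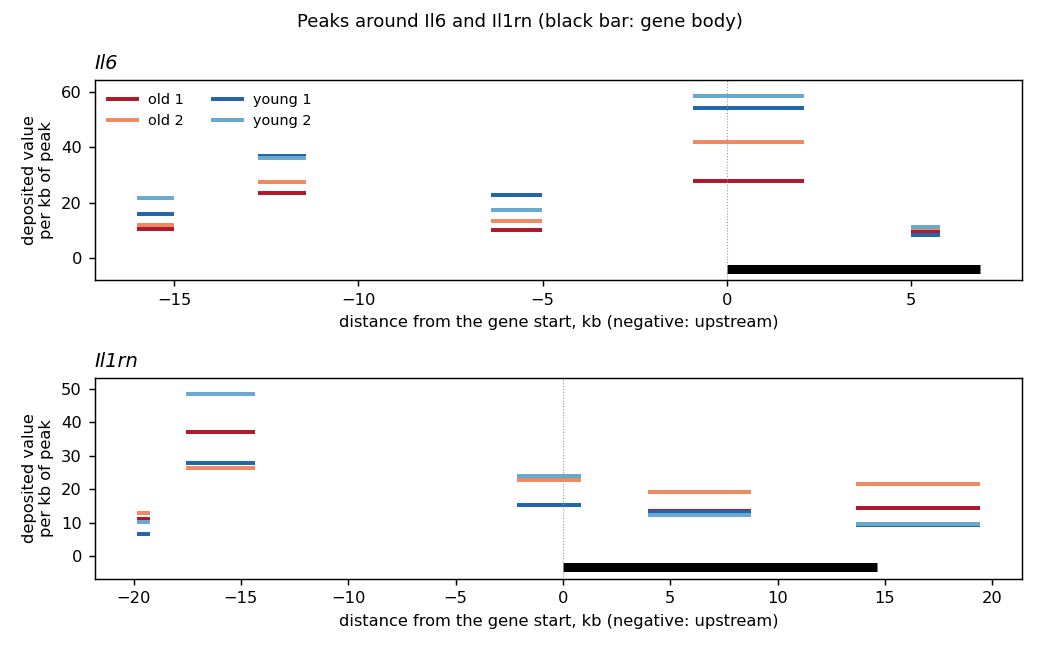
Deposited value per kb of each peak in the 4 samples, drawn over the width of the peak, against the distance from the gene start in kb for Il6 (top) and Il1rn (bottom), with the gene body as a black bar. The Il6 start peak is the tallest of its locus and lower in both old samples, and the last Il1rn peak is higher in both old samples.

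At the Il11 start the age groups separated on the deposited scale and overlapped after RLE scaling. It encodes interleukin-11, another gp130 cytokine, which supports bone formation. The gene lies at chr7:4772373-4782859 on the minus strand. Peak 1 (chr7:4776201-4782700) spans much of the gene and ends 159 bp inside the annotated start. Its deposited values were 139 and 138 in old and 172 and 175 in young samples. After RLE scaling they were 171 and 137 against 161 and 153, so that the groups overlapped. The log2 fold change was -0.032 with a standard error of 0.16, and it lay above 0 under 4 alternative settings, by up to 0.14. The 4 peaks upstream lie over the neighbouring genes Tmem238, Rpl28 and Ube2s, so they cannot be assigned to Il11. Their RLE-scaled log2 fold changes ran from -0.27 at peak 5 to 0.37 at peak 4. The summed value was 372 and 432 in old and 514 and 512 in young samples, 78.3% of young as deposited and 95.4% after RLE scaling.

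Lif had RLE-scaled log2 fold changes above 0 at all 4 of its peaks, from 0.013 to 0.67, but the old samples disagreed. Both old samples were above both young samples at only 1 of the 4 on that scale, where 23.2% of all peaks did so. LIF is the third gp130 cytokine of the set and a regulator of stem cell and bone cell differentiation. The gene lies at chr11:4257557-4272514 on the plus strand. Its start peak, peak 1 (chr11:4256801-4259400), had deposited values of 27.3 and 51.9 in old and 36.8 and 22.1 in young samples. Old 1 lay between the young samples and Old 2 lay above both. The RLE-scaled log2 fold change was 0.67 with a standard error of 0.28, with a limma unadjusted p of 0.027 and adjusted p of 0.238, and its size rests on single libraries. It was 0.97 without Old 1 (adjusted p 0.000814), 1.07 without Young 1 (adjusted p 0.285), 0.37 without Old 2 (adjusted p 0.437) and 0.26 without Young 2 (adjusted p 0.967). At peak 4 (chr11:4270601-4272600), over the last exon, the deposited values were 26.2 and 67.9 in old and 50.6 and 51.7 in young samples. The young samples lay close together there, between the old ones.

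The gap between the old samples was wide on the chromosome that carries Lif. The median log2 difference of Old 2 from Old 1 was 0.41 over the peaks of chromosome 11 and 0.28 over all autosomes. At Lif peaks 1, 3 and 4 it was 0.90, 0.78 and 1.34. The part of that gap in the Lif values was not tested. Summed over its peaks, Lif had 105 and 187 in old and 150 and 124 in young samples. The sum was 107% of young as deposited and 127% after RLE scaling, with an exact permutation p of 1. Without Old 2 the deposited log2 difference was -0.39 and without Young 2 it was -0.038, in place of 0.093, so its direction rests on single libraries.

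The genes of interleukin-1 itself had no called peak at their starts. Il1a and Il1b encode interleukin-1α and interleukin-1β, which activate NF-kB through the same receptor, and neither had a peak within 1 kb of an annotated transcript start. Il1a lies at chr2:129299610-129309972 and Il1b at chr2:129364570-129371139, both on the minus strand, with starts 61167 bp apart. The only peak assigned to Il1b was a 100 bp site upstream with deposited values of 0.699 and 1.84 in old and 1.42 and 2.38 in young samples. These rest on 2 and 6 counts against 4 and 7, and the exact Poisson 95% interval of the lowest, 0.242 to 7.22 counts, and that of the highest, 2.81 to 14.4 counts, overlapped. No difference was detectable there at this depth.

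Il1a had 2 upstream peaks. Peak 2 (chr2:129328901-129332000) was the wider, with deposited values of 94.8 and 93.7 in old and 133 and 153 in young samples. After RLE scaling they were 117 and 93.0 against 125 and 134, with both old samples below both young samples on either scale. Its log2 fold change was -0.31 with a standard error of 0.17 and a limma adjusted p of 0.383. Peak 1 was lower as well, at 9.09 and 7.99 in old against 13.8 and 15 in young samples, with a log2 fold change of -0.42 and a limma adjusted p of 0.519, and -0.66 without Old 1 or -0.19 without Old 2. The Il1a sum was 65.1% of young as deposited and 80.3% after RLE scaling.

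Il1rn stood on the other side. It encodes the interleukin-1 receptor antagonist, which occupies the receptor without activating it. All 5 of its peaks had RLE-scaled log2 fold changes above 0. At 4 of them both old samples exceeded both young samples on that scale, where 23.2% of all peaks did so. As deposited this held at 3 of the 5, against 7.56% of all peaks. The gene lies at chr2:24336853-24351494 on the plus strand. Peak 5 (chr2:24350501-24356300) overlaps the last 994 bp of the gene and runs 4806 bp beyond its end. Its deposited values were 83.6 and 125 in old and 53.4 and 56.4 in young samples. Both old samples were above both young samples, which lay close together. RLE-scaled means were 114 ± 15.3 (SD, n = 2) in old and 49.7 ± 0.583 (SD, n = 2) in young samples, or 229% of young.

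The log2 fold change of Il1rn peak 5 was 1.17 with a standard error of 0.19, the highest of the 42 peaks. The limma adjusted p was 0.0103, which misses the threshold of 0.01 narrowly. Over 11 alternative settings the log2 fold change stayed between 0.89 and 1.31. In those settings that kept all libraries, the limma adjusted p ran from 0.000183 with the replicate block to 0.0475 on deposited values. It was also below 0.01 under quantile normalization (0.0061) and with a pseudocount of 5 (0.0083). With single libraries left out the log2 fold change ran from 1.04 without Old 2 to 1.31 without Old 1. Without RLE scaling the log2 fold change was 0.89 and the adjusted p 0.0475. The middle 300 bases of this peak (chr2:24353251-24353550, plus strand) are shown as the sequence of the member site that differed most, and they hold no match to the kB, AP-1 or C/EBP motif.
Il1rn peak 5, middle: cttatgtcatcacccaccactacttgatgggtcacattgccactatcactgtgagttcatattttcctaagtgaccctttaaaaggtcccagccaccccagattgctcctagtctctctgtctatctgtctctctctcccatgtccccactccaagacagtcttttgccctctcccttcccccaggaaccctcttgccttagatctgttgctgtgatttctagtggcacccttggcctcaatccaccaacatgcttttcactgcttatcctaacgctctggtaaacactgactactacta

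The start peak of Il1rn, peak 3 (chr2:24334701-24337700), had deposited values of 68.9 and 68.5 in old and 46.0 and 71.4 in young samples. The groups overlapped as deposited and did not after RLE scaling, at 84.8 and 68.0 in old against 43.1 and 62.3 in young samples. Its log2 fold change was 0.54 with a standard error of 0.21 and a limma adjusted p of 0.216. It was 0.71 without Old 2 (adjusted p 0.0074) and 0.28 without Young 1 (adjusted p 0.867). Peak 4 (chr2:24340801-24345600), over an alternative start inside the gene, had 65.0 and 91.8 in old and 63.3 and 59.2 in young samples. Here both old samples were above both young samples on either scale. Its log2 fold change was 0.62 with a standard error of 0.19 and a limma adjusted p of 0.111, which ran from 0.00135 without Old 1 to 0.828 without Young 2.

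The upstream Il1rn peaks gave a mixed picture. Peak 1 was a low site, with 6.64 and 7.68 in old and 3.89 and 6.12 in young samples, a log2 fold change of 0.71 and a limma adjusted p of 0.337. Peak 2 (chr2:24319301-24322500), which reaches the lincRNA gene Gm13411, was taller and spread more within groups than between them, with 118 and 83.8 in old and 89.2 and 155 in young samples. Its log2 fold change was 0.050 with a standard error of 0.24. The sum over the 5 peaks was 342 and 377 in old and 256 and 348 in young samples, 119% of young as deposited, with an exact permutation p of 0.67. The deposited log2 difference of 0.25 was 0.049 without Young 1 and 0.49 without Young 2, so its size rests on single libraries. After RLE scaling it was 146% of young, with both old samples above both young samples, where 15.6% of 18118 protein-coding genes were so placed.

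**Figure D3:**
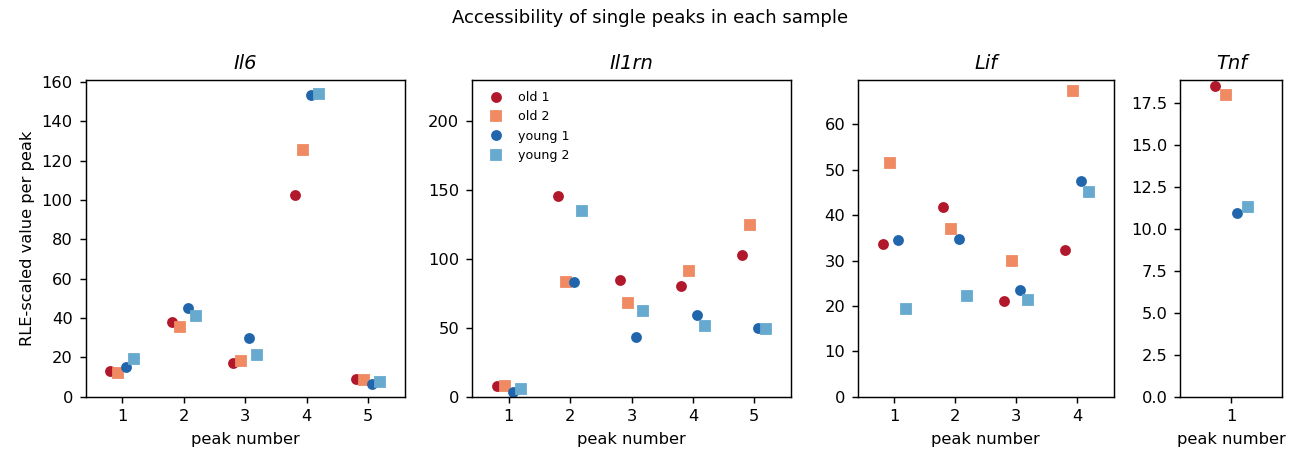
RLE-scaled value of each peak of Il6, Il1rn, Lif and Tnf in the 4 samples, with old samples in red and orange and young samples in dark and light blue, and a separate linear vertical axis for each gene. Old samples lie above young samples at Il1rn peaks 1, 3, 4 and 5 and at Tnf, and below them at Il6 peaks 1 to 4.

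Tnf, the gene of tumour necrosis factor, had 1 weak peak, which was higher in old samples on both scales. The gene lies at chr17:35199381-35202007 on the minus strand, and the peak (chr17:35200401-35202400) covers its start. Deposited values were 15 and 18.1 in old and 11.7 and 12.9 in young samples. After RLE scaling the means were 18.2 ± 0.361 (SD, n = 2) in old and 11.1 ± 0.234 (SD, n = 2) in young samples, or 164% of young. The log2 fold change was 0.67 with a standard error of 0.27, with a limma unadjusted p of 0.025 and adjusted p of 0.234. As deposited the sum was 135% of young, with both old samples above both young samples. Tnf was the only one of the 10 genes so placed on that scale, where 1.5% of protein-coding genes were. Its sum is the value of 1 peak, and of single peaks 7.56% were so placed as deposited. The exact permutation p was 0.33.

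Both genes of the NF-kB brakes had a peak over their start. Tnfaip3 lies at chr10:19000910-19015657 on the minus strand. Its start peak, peak 2 (chr10:19014001-19017800), holds both kB matches shown above, with deposited values of 107 and 112 in old and 159 and 171 in young samples. After RLE scaling the old samples, at 132 and 111, were still below the young ones. Its log2 fold change was -0.30 with a standard error of 0.16 and a limma adjusted p of 0.374, and it was -0.17 without Old 2. The other Tnfaip3 peaks, 1 and 3, had log2 fold changes of 0.0066 and 0.15, with groups that overlapped. The Tnfaip3 sum was 70.6% of young as deposited and 86.9% after RLE scaling.

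Nfkbia, at chr12:55489410-55492647 on the minus strand, sits inside the widest peak of the set. Peak 1 (chr12:55480401-55495800) spans 15400 bp and reaches 9009 bp past the end of the gene. It held 10 of the 29 kB matches found in all member peaks. Its deposited values were 272 and 321 in old and 368 and 386 in young samples. After RLE scaling they were 335 and 319 against 345 and 337, which gives a log2 fold change of -0.061 with a standard error of 0.12. Its sign turned to 0.0082 when libraries were set to equal total signal. The upstream peaks 2 and 3 had log2 fold changes of 0.40 and 0.69. Peak 3 had 8.04 and 9.83 in old and 5.31 and 7.48 in young samples, which did not overlap, with a limma adjusted p of 0.313. The Nfkbia sum was 82.1% of young as deposited and 100.1% after RLE scaling.

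Nfkb1 was the longest gene, at chr3:135584655-135691547 on the minus strand, and had 13 peaks. Its start peak, peak 12 (chr3:135687801-135693500), had deposited values of 142 and 162 in old and 190 and 216 in young samples, and a log2 fold change of -0.13 with a standard error of 0.15. The peak with the largest values, not divided by its width of 8100 bp, was peak 10 (chr3:135669201-135677300) over an alternative start. It had 198 and 225 in old and 259 and 295 in young samples, and a log2 fold change of -0.10. At both the old samples were below the young samples as deposited, and at peak 10 the groups overlapped after RLE scaling. The log2 fold changes of all 13 ran from -0.32 at peak 7 to 0.51 at peak 6, with 8 below 0 and a median of -0.020. At peak 7, in an intron, deposited values were 16.1 and 18.4 in old and 27.2 and 25.8 in young samples, which did not overlap on either scale. Its limma adjusted p was 0.558, and the lowest among the 13 was 0.463. The Nfkb1 sum was 79.1% of young as deposited and 96.5% after RLE scaling.

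Over the 10 sums, the old samples were both below the young ones for 6 genes as deposited and for 4 after RLE scaling (Il6, Il1a, Tnfaip3 and Nfkb1), where 53.6% and 25.4% of protein-coding genes were. Both were above for 1 gene as deposited (Tnf), where 1.5% of protein-coding genes were. After RLE scaling both were above for 2 genes (Il1rn and Tnf), where 15.6% of protein-coding genes were. Tnf has only 1 peak, and of single peaks 7.56% as deposited and 23.2% after RLE scaling were so placed. The median log2 difference of the sums was -0.35 as deposited, against -0.28 over all protein-coding genes, and -0.060 after RLE scaling, against -0.0070.

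The genes also differed from each other in how open their starts were. Per kb of peak, as deposited, the start peak of Il6 had the highest level in young samples, 56.6 ± 2.98 (SD, n = 2). Below it came Tnfaip3 at 43.4 ± 2.32 and Nfkb1 at 35.6 ± 3.21, then Il11 at 26.7 ± 0.377 and Nfkbia at 24.5 ± 0.788. Il1rn at 19.6 ± 5.99, Lif at 11.3 ± 4.00 and Tnf at 6.15 ± 0.439 had the lowest levels, all as SD with n = 2. No neighbours in this order overlapped in range, although Nfkbia and Il1rn were separated by less than the SD of Il1rn. For comparison, promoter peaks of all protein-coding genes had a median per kb of 25.4 and 26.5 in the young samples and of 18.2 and 25.2 in the old samples.

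In old samples the order of levels per kb changed in the middle. Il6 remained first at 34.9 ± 10.1 (SD, n = 2), but its range overlapped that of Tnfaip3 at 28.8 ± 0.951, which overlapped that of Nfkb1 at 26.7 ± 2.51. Il1rn, at 22.9 ± 0.0922, came next and was above Il11 at 21.3 ± 0.104 and Nfkbia at 19.3 ± 2.23, whereas it was below both in young samples. The ranges of Nfkbia and Lif, at 15.2 ± 6.70, overlapped, and Tnf was again last at 8.29 ± 1.09. After RLE scaling each group kept its own order of means, and in old samples each of the first 5 genes overlapped its next lower neighbour.

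**Figure D4:**
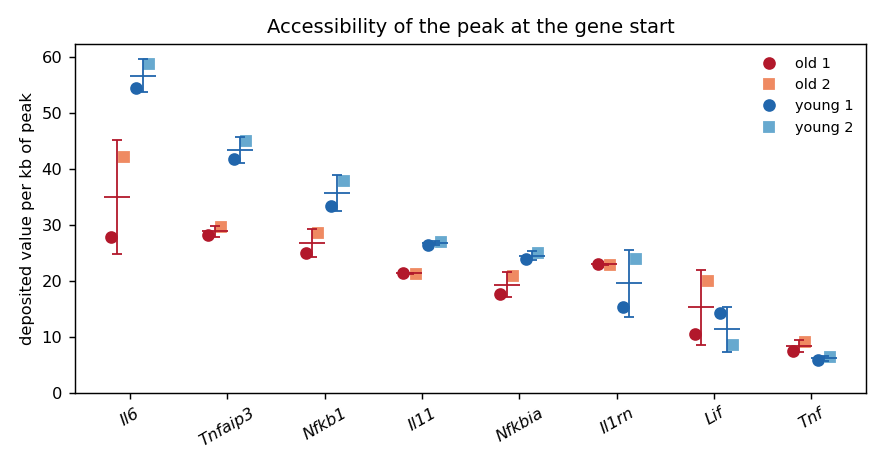
Deposited value per kb, averaged over the whole width of the peak at the start of 8 genes, in the 4 samples. Genes are ordered by their level in young samples, on a linear axis. Young values fall from 56.6 per kb at Il6 to 6.15 per kb at Tnf, and the 2 old samples lie apart at Il6 and Lif.

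The same motifs were counted in the peaks themselves. The kB consensus occurred 29 times in 12 of the 42 peaks, or 0.231 matches per kb against 0.135 per kb over all peaks. AP-1 matches occurred at 0.455 per kb against 0.498, and C/EBP matches at 0.559 against 0.481. In the middle 300 bases, where a binding site of an open region would often lie, 2 member peaks or 4.76% held a kB match, against 3.52% of all peaks. AP-1 matches lay in the middle of 14.3% of member peaks, against 21.5% of all peaks, and C/EBP matches in 9.52%, against 15.5%.

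The rest of the NF-kB pathway, 36 genes of subunits, inhibitors, kinases, adaptors and receptors with 215 peaks, gave 0 peaks past the adjusted threshold, with a lowest limma adjusted p of 0.0566. Its median RLE-scaled log2 fold change was 0.0082, and at an unadjusted p below 0.05 14 peaks were higher and 13 lower, where 7.49% and 8.87% of all peaks were. The highest log2 fold changes were at Tab1 peak 3, 1.13, and Traf3 peak 8, 1.02. TAB1 is a partner of the kinase TAK1, and at its peak 3 Old 2 had 80.2, while Old 1 had 31.1 and the young samples had 30.4 and 24.5. The lowest were at Ikbkb peaks 6 and 3, -0.98 and -0.96. Ikbkb encodes the IκB kinase subunit IKKβ, and at peak 3, inside the gene, deposited values were 9.79 and 11.1 in old and 23.7 and 27.9 in young samples. After RLE scaling the sums of 5 of the 36 genes were higher and those of 11 were lower in both old samples, where 15.6% and 25.4% of protein-coding genes were.

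The gp130 pathway, 15 genes of receptors, ligands, kinases and STAT regulators with 118 peaks, also gave 0 peaks past the adjusted threshold, with a lowest limma adjusted p of 0.0572. Its median log2 fold change was 0.11, against 0.0011 over all peaks. On the RLE scale 79 of the 118 peaks were higher in old samples, where 58778 of the 117282 were. Both old samples were above both young samples at 27 of the 118 (22.9%), where 23.2% of all peaks did so. They were both below at 19 (16.1%), where 24.2% of all peaks did so. At an unadjusted p below 0.05 10 peaks were higher and 3 lower, where 7.49% and 8.87% of all peaks were. The lowest log2 fold changes were -1.75 at Lifr peak 7, inside the gene of the LIF receptor, and -1.38 at Il6st peak 13, in the gene of gp130 itself. At Il6st peak 13 the deposited values were 2.80 and 3.07 in old and 10.6 and 11.6 in young samples. The Lifr site had 0.699 and 2.15 in old against 9.55 and 6.46 in young samples, and the lowest of these is below the value of 3 counts. The highest was 1.14 at Stat3 peak 5, where Old 2 had 7.99 and the other samples had between 1.36 and 2.12. Osmr peak 4 was listed at 0 in both young samples and at 0.350 and 1.84 in old samples, so no fold is given. The sums of 2 genes were higher and that of 1 was lower in both old samples after RLE scaling, where 15.6% and 25.4% of protein-coding genes were, and those of 12 overlapped.

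The 20 kb limit left peaks close to it on both sides. The farthest sites inside it were Nfkb1 peak 13, whose near edge lies 19954 bp from the start, and Il1rn peak 1 at 19253 bp. Values of Nfkb1 peak 13 were 28.3 and 31.6 in old and 32.2 and 34.7 in young samples. The nearest site outside lay 22262 bp upstream of Il1b, with 6.29 and 3.38 in old and 6.02 and 7.48 in young samples. The next lay 22653 bp upstream of Il1rn, with 205 and 215 in old against 315 and 378 in young samples, in the opposite direction to the Il1rn peaks inside. With 5 kb in place of 20 kb upstream the rule held 27 peaks, and with 50 kb it held 68.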

How the data were processed

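ATAC-seq values of 4 samples (2 Old, 2 Young) were analysed over one joint peak list. The authors' notes name mm10, Bowtie2 and Picard; the published methods, written for cells compared across oxygen levels, add duplicate removal, chromstaR peak calling and edgeR, and the processing of the old and young libraries is not given separately in the sources used here. The deposited values, a score called RPKM by the authors, were whole multiples of one step per library (100% of values, within a relative tolerance of 0.001), so they are counts per 10000000 of the library total without division by length. Library totals of 28259470 to 32559794 counts set a floor of 3 counts. Intervals cover counting error only.

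Values were divided by RLE factors and compared as log2(value + 1) with limma 3.58.1 in R 4.3.3 (lmFit, eBayes with trend and robust settings), with Benjamini-Hochberg adjustment over 117282 peaks and a threshold of 0.01. limma on these RLE-scaled values was the main test, in place of the count model of the published methods. Counts recovered from the steps were fitted with limma-voom as an alternative. The fit was tested on simulated data. Gene sums were compared by two-sided exact permutation tests over samples. Fold changes on the log2(value + 1) scale understate the change of weak peaks. Peaks were assigned, and positions called, with GENCODE vM21, and the start position of a promoter peak includes alternative transcript starts. Sequences were read from RefSeq's GRCm38.p6.

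Described in full are the promoter peak of each gene with the highest mean, the 5 highest and 5 lowest log2 fold changes and peaks with an unadjusted p below 0.05; other member peaks are given as well where a gene's account needs them. Genes and lists were chosen with earlier results of these data known. Alternatives covered scaling, pseudocount, a filter on weak peaks, moderation, a replicate block, limma-voom, windows and single libraries left out.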

Additional observations from a re-analysis of the deposited data

How the results depend on the processing

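With 2 samples a group, leaving out 1 library leaves that group with a single sample, whose spread is then assumed to equal that of the other group. The weakest sites rest on few counts (2 to 7 at the Il1b peak), and differences there were not detectable. The count of member peaks higher in old samples, 0, became 1 under quantile normalization, with a pseudocount of 5, with a replicate block, with limma-voom on recovered counts, at an adjusted p below 0.05 and with the crossed replicate block, and the peak was Il1rn peak 5 each time. It ran from 0 to 3 with single libraries left out: 3 without Old 1 (Lif peak 1, Il1rn peaks 4 and 5) and 2 without Old 2 (Il1rn peaks 3 and 5). The count of lower peaks ran from 0 to 1 (Il1a peak 2 without Old 1, Il6 peak 4 without Old 2). NF-kB pathway calls, 0, became 1 with the replicate block and ran from 0 to 26 with single libraries left out, and gp130 pathway calls ran from 0 to 9. The 26 and the 9 came without Old 1. Over all peaks 30 were higher and 36 lower; these became 3880 and 6476 without Old 1, 502 and 1176 without Old 2, 7 and 1 without Young 1, and 0 and 0 without Young 2.

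Among other settings the counts over all peaks were 52 and 1333 on deposited values, 42 and 53 under quantile normalization, 15 and 7 with equal total signal, 13 and 11 with a pseudocount of 0.1, 38 and 54 with a pseudocount of 5, 12 and 13 after the filter on weak peaks, which kept 36 member peaks, 0 and 0 with plain moderation, and 49 and 95 with limma-voom. On deposited values without Old 2, 10 member peaks were lower, where 15.4% of all peaks were. The median log2 fold change of the member peaks, 0.0079, became -0.27 on deposited values and 0.075 with equal total signal, and ran from -0.023 to 0.072 with single libraries left out; the median over all peaks moved to -0.27 and 0.066. Il11 peak 1 changed sign under quantile normalization (0.012) and equal total signal (0.036), and ran from -0.19 to 0.14 with single libraries left out, being 0.14 without Old 2 and 0.00028 without Young 1. Nfkbia peak 1 became 0.0082 with equal total signal. The Nfkbia sum became 0.0017 after RLE scaling. The Lif sum ran from -0.39 to 0.45 with single libraries left out (-0.39 without Old 2, -0.038 without Young 2). The cause of these changes was not tested. The gene sums after RLE scaling and with libraries left out, and the crossed block, were added after seeing the data.

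Replicate numbers are shared between the groups, but same-numbered samples did not deviate together (correlation -0.0993 after RLE scaling and -0.102 as deposited). With 2 samples a group this cannot show whether same-numbered samples shared a preparation. The replicate block gave 362 higher and 907 lower peaks over all peaks, and the crossed replicate block 1022 and 2197.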
